A study of Mus musculus with 6 samples.

Results

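The 9 genes described here are those commonly used to tell states of macrophage activation apart, namely *Nos2*, *Cd80*, *Cd86*, *Acod1*, *Arg1*, *Mrc1*, *Cd163*, *Retnla* and *Chil3*. They were found by symbol in a table of 56748 genes, in which all 9 are listed. RNA was measured in 6 cultures of primary osteocytes isolated from mouse long bones, 3 labelled WT and 3 labelled cKO. Every culture, WT included, was grown for 7 days and then given LPS for 3 h at 10 ng/mL and, for the next 3 h, 20 µg/mL of aluminum hydroxide, a particle that triggers the inflammasome in primed cells, so that each value compares the genotypes under stimulation and no unstimulated culture was analysed here. WT cells came from C57BL/6J mice (the methods on isolating osteocytes write C57BL/6) without a named floxed allele or Cre transgene. The methods give 7 weeks as the age of mice for osteocyte cultures and no separate age for the cKO mice. The cKO cells came from *Gsdmd* fl/fl; DMP1-Cre mice, in which Cre is driven by the promoter of *Dmp1* and can act only where that promoter is or has been active. The labels do not say whether the 3 cultures of a genotype came from separate animals, so that p-values measure the spread between these cultures only.

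Macrophages change their program with the signals they meet. LPS and interferon-γ induce the enzymes encoded by *Nos2* and *Acod1*, which make nitric oxide from arginine and itaconate from a citric acid cycle intermediate, and the T cell costimulatory ligands encoded by *Cd80* and *Cd86*. IL-4 and IL-13, acting through STAT6, induce in mouse macrophages *Arg1*, which encodes an arginase that competes for the same arginine, the endocytic mannose receptor *Mrc1* and the secreted proteins *Retnla* and *Chil3*, and *Cd163* encodes a scavenger receptor for hemoglobin bound to haptoglobin. None of the 9 is limited to macrophages, and *Nos2* in particular is induced by inflammatory signals in chondrocytes, fibroblasts and cells of the osteoblast lineage as well.

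Of the 9 genes, *Mrc1*, *Arg1* and *Cd86* were higher by 3.43 to 8.88 times in the libraries labelled cKO, *Acod1* was modestly higher, and *Nos2* and *Cd80* were slightly lower. *Retnla* and *Chil3* had 0 counts in all 6 libraries and *Cd163* had at most 15. *Nos2* was by far the most abundant of the 9 in both genotypes. Of the 4 genes tied to LPS and interferon-γ, 2 were higher and 2 lower. Of all tested genes, 20.1% were higher and 19.2% lower at an adjusted p-value below 0.05 (edgeR's quasi-likelihood test).

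The library totals lay between 39566835 and 49734046 counts. *Gsdmd*, the deleted gene, was counted 885 to 1045 times in the libraries labelled cKO against 549 to 699 times in WT, which goes against the label. A count over the whole gene does not separate the floxed exons from the others. Every direction given here rests on the genotype as labelled. The X-linked transcript *Xist* had 0 to 4 counts in WT libraries, against 44817 to 51216 in those labelled cKO, and *Ddx3y*, *Eif2s3y*, *Uty* and *Kdm5d*, which are Y-linked, together had 7696 to 10282 counts in WT and 0 in each library labelled cKO, so that sex and genotype cannot be told apart. Of 7 osteocyte markers 2 had enough counts to be tested, and the others were absent or scarce. *Sost* had 0 counts in every library, *Mepe* at most 2, *Dmp1* at most 6, *Phex* at most 22 and *Fgf23* at most 34. The 2 tested were *Irx5*, with 207 to 302 counts per library, and *Pdpn*, which connective tissue cells also express, with 7743 to 11932. All 14 genes of a list of macrophage markers, among them *Csf1r* and *Adgre1*, were higher in the libraries labelled cKO, where their summed level was 6571 to 6885 CPM (counts per 1000000, scaled by edgeR's TMM method) against 1228 to 1376 CPM in WT. Their median log2 fold change was 3.02. In RNA from whole cultures, more cells of a type cannot be told apart from more RNA of these genes per cell, and the part of either in the results below was not tested. Of 10 neutrophil markers 3 were tested and all 3 passed as higher, *Mmp8* with a log2 fold change of 2.11, *S100a8* with 1.61 and *Camp* with 0.49, and the other 7, among them *Ly6g*, *S100a9*, *Elane* and *Mpo*, each had 10 counts or fewer in every library. Their part in the results was not tested. Of the remaining lists, 4 of 5 markers of eosinophils and mast cells had 0 counts in all 6, and the *Cd3d*, *Cd3e*, *Cd3g* and *Cd8a* genes of T cells had 0 counts in all 6.

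For *Nos2*, which stood apart from the rest, and for the 3 genes that were most strongly higher, the 250 bases before the transcription start are printed below. The starts are those of the canonical transcripts of GENCODE M39 on GRCm39, the build to which the authors aligned their reads, and each sequence is written 5′ to 3′ on the strand of its gene. Capitals mark matches, on either strand, to 7 motifs: the NF-κB site, the interferon-γ element (TTCNNNGAA), the STAT6 site (TTC and GAA with any 4 bases between), the interferon-stimulated response element (GAAA and GAAA with any 2 bases between), the AP-1 site (TGANTCA), the core bound by the myeloid factor PU.1 (GAGGAA) and a C/EBP site (TTGCNNAA).
Nos2 (chr11:78811363-78811612, plus strand): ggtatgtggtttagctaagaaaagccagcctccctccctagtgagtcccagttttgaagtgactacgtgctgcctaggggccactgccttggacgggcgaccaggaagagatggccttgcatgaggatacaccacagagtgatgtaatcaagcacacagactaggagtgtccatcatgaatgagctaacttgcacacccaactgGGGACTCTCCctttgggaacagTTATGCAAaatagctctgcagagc
Mrc1 (chr2:14233901-14234150, plus strand): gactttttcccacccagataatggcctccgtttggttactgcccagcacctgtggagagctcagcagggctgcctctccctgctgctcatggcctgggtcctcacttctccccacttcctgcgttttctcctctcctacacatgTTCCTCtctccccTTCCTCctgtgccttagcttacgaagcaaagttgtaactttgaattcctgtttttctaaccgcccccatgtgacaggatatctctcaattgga
Arg1 (chr10:24803517-24803766, minus strand): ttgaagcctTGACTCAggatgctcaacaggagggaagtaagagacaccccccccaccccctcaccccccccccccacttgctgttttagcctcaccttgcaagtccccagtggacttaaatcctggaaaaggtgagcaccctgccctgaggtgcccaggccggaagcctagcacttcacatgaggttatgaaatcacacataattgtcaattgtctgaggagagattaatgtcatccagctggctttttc
Cd86 (chr16:36486440-36486689, minus strand): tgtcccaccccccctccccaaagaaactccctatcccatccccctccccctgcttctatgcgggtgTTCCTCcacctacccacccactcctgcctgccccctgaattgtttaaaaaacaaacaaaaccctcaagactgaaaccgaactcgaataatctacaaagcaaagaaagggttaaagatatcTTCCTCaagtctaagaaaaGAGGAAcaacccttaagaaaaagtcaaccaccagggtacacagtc

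The upstream sequence of *Nos2* held an NF-κB match, GGGACTCTCC, from 46 to 37 bases before the start and a C/EBP match, TTATGCAA, from 24 to 17 bases before it. Among 21770 protein-coding promoters of the same length, 5.16% held the NF-κB motif and 9.34% the C/EBP motif. *Mrc1* held the PU.1 core 2 times and *Cd86* held it 3 times, and 22.9% of promoters held it at least 1 time. *Arg1* held only an AP-1 match, TGACTCA, which 6.17% of promoters had. Outside the 4 sequences printed, *Cd80* also held an AP-1 match and *Acod1* a PU.1 core. *Retnla*, which had no counts, held a STAT6 match, TTCACAAGAA, from 68 to 59 bases before its start, a motif found in 5.89% of promoters, and also a PU.1 core and a C/EBP match. *Chil3* held TTCTTAGAA, a match to the interferon-γ element found in 7.7%. *Cd163* held none of the 7. These matches describe letters in a window and do not show binding.

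Genes were compared with edgeR's quasi-likelihood test. A gene passed when its Benjamini-Hochberg adjusted p-value, taken over all 17146 genes with enough counts, was below 0.05, and was called when its log2 fold change was also at least 1 in size. Of the 9 genes, 6 had enough counts to be tested, each with at least 66 counts in every library. Among these, 4 passed as higher and 2 as lower in the libraries labelled cKO, where 20.1% of all tested genes passed as higher and 19.2% as lower. With the limit on fold change, 3 were called higher (6.56% of all tested genes) and 0 lower (4.64%). The 2 that passed as lower were *Nos2* and *Cd80*. The libraries of the genotypes did not overlap for any of the 6, as for 49.2% of all tested genes, with 4 higher in every library labelled cKO (25.3% of all tested genes) and 2 lower in every one (23.9%). The median log2 fold change of the 6 was 1.25, and that of all tested genes was 0.0077.

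**Figure D1:**
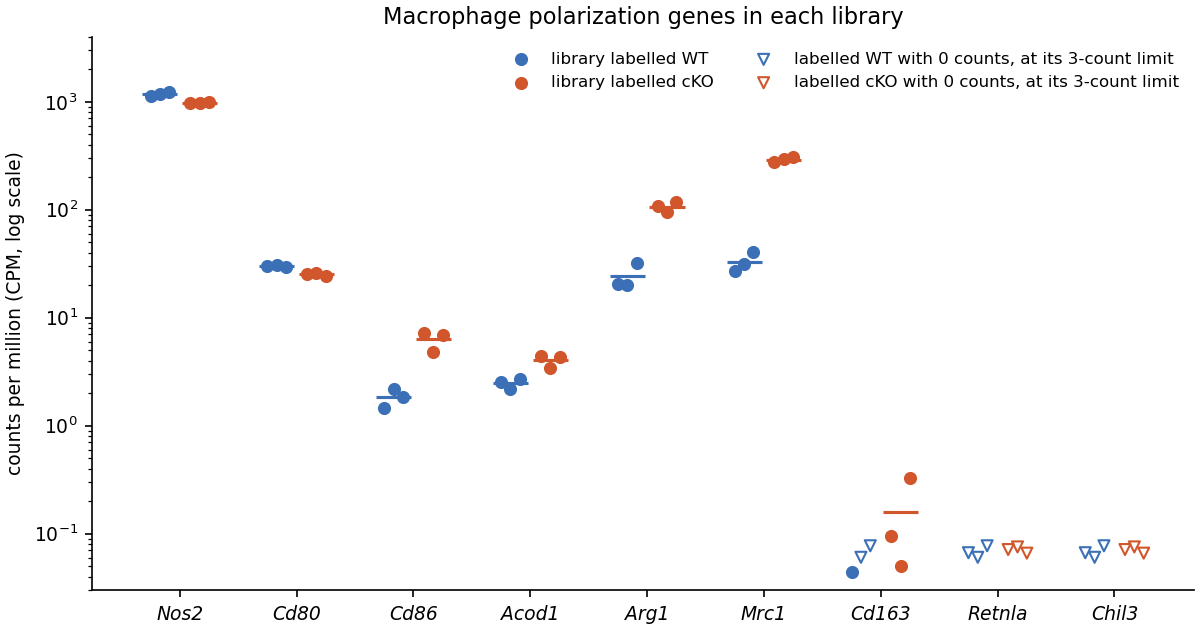
Level of each of the 9 genes in every library, in CPM on a log axis, with WT in blue and the libraries labelled cKO in orange. Points are single libraries, lines are means of 3 libraries drawn where no library had 0 counts, and open triangles are libraries with 0 counts, drawn at the CPM that 3 counts would give. *Nos2* lies far above the others in both genotypes (means of 1188 and 980.4 CPM), *Mrc1*, *Arg1* and *Cd86* are separated upward, and *Retnla* and *Chil3* have no counts.

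*Nos2* (ENSMUSG00000020826, chromosome 11 from 78811613 to 78851080) encodes inducible nitric oxide synthase. It was counted 51248, 59072 and 47938 times in WT, which is 1139, 1190.4 and 1235 CPM, and 41220, 38498 and 45127 times in the libraries labelled cKO, which is 979.6, 968.1 and 993.4 CPM. The genotypes did not overlap, and the spread within each was narrow, at 1188 ± 48.3 CPM for WT and 980.4 ± 12.7 CPM for the libraries labelled cKO (SD, n = 3 each). The log2 fold change was -0.28 (standard error 0.036), that is 0.825 times the WT level (adjusted p = 5.87e-06, edgeR's quasi-likelihood test). In the same libraries the 14 macrophage markers had log2 fold changes from 1.73 to 4.42. Per kilobase of gene length *Nos2* was at percentile 99.4 of the tested genes.

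*Arg1* (ENSMUSG00000019987, chromosome 10 from 24791119 to 24803382) encodes the arginase that turns arginine into ornithine and urea. It was counted 925, 999 and 1247 times in WT (20.6, 20.1 and 32.1 CPM) and 4575, 3758 and 5349 times in the libraries labelled cKO (108.7, 94.5 and 117.8 CPM). WT replicate 3 was the highest of its genotype and still far below the lowest library labelled cKO. The means were 24.3 ± 6.81 and 107.0 ± 11.7 CPM (SD, n = 3 each), a log2 fold change of 2.15 (standard error 0.13), or 4.44 times (adjusted p = 2.35e-10, edgeR's quasi-likelihood test). Leaving out 1 library at a time gave values from 2.02 to 2.39.

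*Nos2* and *Arg1* use the same substrate, and their levels were set against each other within each library, a ratio chosen after the values of the genes had been seen. Per kilobase, *Nos2* was 27.8, 29.7 and 19.3 times the level of *Arg1* in WT, but 4.52, 5.14 and 4.23 times where the label was cKO. The mean ratios were 25.6 ± 5.53 and 4.63 ± 0.464 (SD, n = 3 each), and a two-sided exact permutation test of the log2 ratio gave p = 0.1, the smallest value that 3 against 3 libraries can give. That outcome was fixed in advance, with *Nos2* lower and *Arg1* higher in every library labelled cKO. *Nos2* exceeded *Arg1* in all 6 libraries.

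Genes that supply or compete for arginine did not move in 1 direction. Of 13 genes of arginine and nitric oxide metabolism, all tested, 6 passed as higher and 3 as lower, and the median log2 fold change was 0.099, with 2 calls upward and 1 downward. *Ass1*, whose product begins the resynthesis of arginine from citrulline, fell from 148.7 ± 11.9 to 28.6 ± 4.32 CPM (SD, n = 3 each), a log2 fold change of -2.37. The transporter *Slc7a2*, which brings arginine into the cell, rose from 492.1 ± 22.9 to 920.2 ± 38.1 CPM, a log2 fold change of 0.90. *Ddah1*, which breaks down methylated arginines that inhibit nitric oxide synthases, fell by 0.65 on the log2 scale. *Odc1*, the next enzyme after arginase on the way to polyamines, had a log2 fold change of 0.21. *Arg2*, the mitochondrial arginase, was called higher at 1.76 ± 0.36 CPM in WT and 3.74 ± 1.11 CPM in the libraries labelled cKO. The neuronal synthase *Nos1*, also called higher, had only 4 to 27 counts per library. Each change named here passed edgeR's quasi-likelihood test.

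*Mrc1* (ENSMUSG00000026712, chromosome 2 from 14234203 to 14336868), the mannose receptor CD206, changed most of the 6 genes tested. It was counted 1218, 1559 and 1564 times in WT (27.1, 31.4 and 40.3 CPM) and 11543, 11722 and 13891 times in the libraries labelled cKO (274.3, 294.8 and 305.8 CPM). The libraries labelled cKO lay close together and far above WT, with means of 32.9 ± 6.74 and 291.6 ± 16.0 CPM (SD, n = 3 each). The log2 fold change was 3.15 (standard error 0.097), or 8.88 times (adjusted p = 2.7e-14, edgeR's quasi-likelihood test). The table also lists *Mir511* inside *Mrc1* on the same strand, with 0 counts. Its paralog *Mrc2*, a collagen-binding receptor of mesenchymal cells, moved the other way, from 899.0 ± 33.4 to 501.9 ± 14.8 CPM (log2 fold change -0.84).

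The scavenger receptor *Cd163* (ENSMUSG00000008845, chromosome 6 from 124281615 to 124307486) was at the edge of detection. It was counted 2, 0 and 0 times in WT and 4, 2 and 15 times in the libraries labelled cKO, too few to be tested, and 15 of the 21 counts came from replicate 3. The ratio of the pooled levels, labelled cKO over WT, was 11.0 with a 95% exact interval from 2.69 to 96.9, which covers counting error only, and 4.89 (0.875 to 49.6) without cKO replicate 3. With counts halved, as for mates counted separately, the interval ran from 1.68 to 496.5. A long noncoding RNA on the opposite strand overlaps *Cd163* and had 0 to 7 counts, and without the strand setting of the counting their reads cannot be told apart. A difference in *Cd163* that does not rest on replicate 3 was not detectable at this depth.

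*Retnla* (ENSMUSG00000061100, chromosome 16 from 48662914 to 48664824) and *Chil3* (ENSMUSG00000040809, chromosome 3 from 106054870 to 106074880) encode the resistin-like and chitinase-like proteins secreted by mouse macrophages under IL-4. Both had 0 counts in all 6 libraries, which allows up to 3 counts or 0.0605 to 0.0773 CPM per library, for counting error only. These limits would be higher if each mate of a pair was counted separately. The paralogs *Retnlb*, *Retnlg*, *Chil4* and *Chia1* also had 0 counts in all 6, and *Retn* had at most 6. How reads that match more than 1 gene were counted is not given in the sources used here. The 0 counts therefore cannot show whether reads shared between similar genes were left out. *Chil1*, a more distant chitinase-like gene, was called higher, at 19.9 ± 1.27 CPM in WT and 152.8 ± 5.59 CPM in the libraries labelled cKO (SD, n = 3 each, log2 fold change 2.94).

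*Cd80* (ENSMUSG00000075122, chromosome 16 from 38275923 to 38316697) and *Cd86* (ENSMUSG00000022901, chromosome 16 from 36424231 to 36486443) encode the B7 ligands of CD28 and CTLA4 and moved in opposite directions. *Cd80* was counted 1357, 1542 and 1140 times in WT (30.1, 31.1 and 29.4 CPM) and 1080, 1031 and 1105 times in the libraries labelled cKO (25.7, 25.9 and 24.3 CPM). It fell slightly without overlap, with a log2 fold change of -0.26 (standard error 0.067), or 0.838 times (adjusted p = 0.00543, edgeR's quasi-likelihood test). *Cd86* was counted 66, 109 and 71 times in WT (1.47, 2.20 and 1.83 CPM) and 302, 192 and 313 times in the libraries labelled cKO (7.18, 4.83 and 6.89 CPM). It rose with a log2 fold change of 1.78 (standard error 0.21), or 3.43 times (adjusted p = 2.07e-06, edgeR's quasi-likelihood test), with cKO replicate 2 the lowest of its genotype.

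Within a library *Cd80* exceeded *Cd86* per kilobase in both genotypes, by 14.0 to 20.3 times in WT but by 3.49 to 5.31 times where the label was cKO. The two-sided exact permutation test of this ratio, also chosen after the values were seen, gave p = 0.1, the smallest possible. That outcome too was fixed in advance, with *Cd80* lower and *Cd86* higher in every library labelled cKO. Among 8 further genes of the B7 family and its receptors, 4 were tested, 3 passed as higher and 0 as lower, with a median of 0.85. *Cd274*, the inhibitory ligand PD-L1, was called higher, from 24.1 ± 1.54 to 53.7 ± 2.45 CPM, as was the receptor *Cd28*, from 1.33 ± 0.198 to 4.40 ± 0.155 CPM (SD, n = 3 each). *Cd276*, another ligand of the family, had a log2 fold change of 0.12 that did not pass (adjusted p = 0.159, edgeR's quasi-likelihood test), and *Ctla4* had 0 counts in all 6 libraries.

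*Acod1* (ENSMUSG00000022126, chromosome 14 from 103284413 to 103294009), whose mitochondrial product makes itaconate, was scarce. It was counted 114, 109 and 104 times in WT (2.53, 2.20 and 2.68 CPM) and 186, 136 and 195 times in the libraries labelled cKO (4.42, 3.42 and 4.29 CPM). The genotypes did not overlap, and cKO replicate 2 was again the lowest of its genotype. The log2 fold change was 0.71 (standard error 0.20), or 1.64 times (adjusted p = 0.00724, edgeR's quasi-likelihood test), under the limit of 1 for a call. Of 13 genes around itaconate, all tested, 3 passed as higher and 2 as lower, with a median of 0.033. *Atf3*, a transcription factor induced by stress, was called higher, from 8.67 ± 0.741 to 22.3 ± 2.06 CPM. *Hmox1*, a heme-degrading enzyme controlled by the factor NRF2, fell from 1487 ± 48.6 to 1201 ± 28.2 CPM (SD, n = 3 each). *Sdha*, part of the enzyme that itaconate inhibits, had a log2 fold change of 0.072 that did not pass (adjusted p = 0.179, edgeR's quasi-likelihood test).

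Because longer genes gather more counts, levels of different genes were compared per kilobase of gene length. In WT the order was *Nos2* at 267.6 ± 10.9, *Arg1* at 10.9 ± 3.06, *Cd80* at 8.15 ± 0.23, *Mrc1* at 5.17 ± 1.06, *Acod1* at 0.941 ± 0.094 and *Cd86* at 0.5 ± 0.1 CPM per kilobase (SD, n = 3 each). In the libraries labelled cKO it was *Nos2* at 220.9 ± 2.85, *Arg1* at 48.0 ± 5.26, *Mrc1* at 45.8 ± 2.51, *Cd80* at 6.83 ± 0.232, *Cd86* at 1.72 ± 0.35 and *Acod1* at 1.54 ± 0.208 CPM per kilobase. *Mrc1* passed *Cd80*, and *Cd86* passed *Acod1*, relative to WT. Neighbours whose levels differed by less than their spread were *Arg1* and *Cd80* in WT, and *Arg1* and *Mrc1* as well as *Cd86* and *Acod1* in the libraries labelled cKO. *Nos2* was alone at the top in both.

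**Figure D2:**
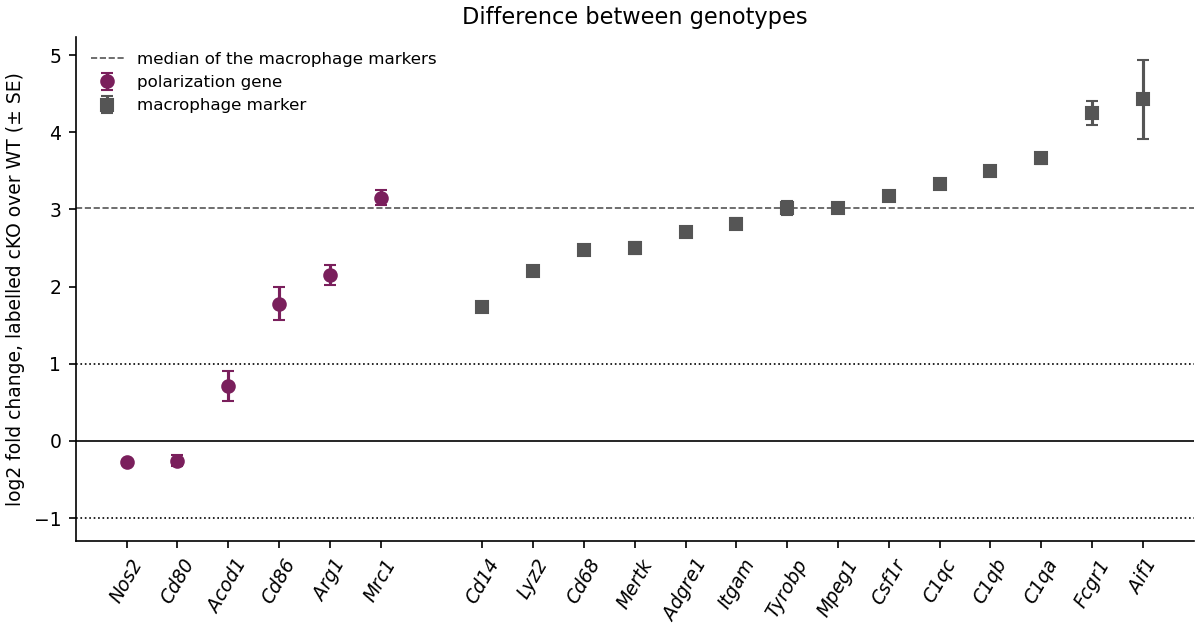
Log2 fold change, labelled cKO over WT, of the 6 polarization genes tested (circles) and of the 14 macrophage markers (squares), with standard errors from edgeR. Dotted lines mark a log2 fold change of 1 in either direction and the dashed line the median of the macrophage markers, 3.02; *Mrc1* (3.15) lies just above that median, *Arg1* (2.15) and *Cd86* (1.78) near the lowest markers, and *Nos2* and *Cd80* below 0.

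To ask how the genes moved against the macrophage markers of the same libraries, the fit was repeated with each library scaled by the geometric mean count of 13 of these markers, namely those with at least 10 counts in every library. This mean was 1014 in WT and 7494 in the libraries labelled cKO, so that on this scale the median over all tested genes was -2.94 and 97.3% of tested genes passed as lower and 0.519% as higher. On it the value for *Mrc1* was 0.20 (standard error 0.085), which passed (adjusted p = 0.0229, edgeR's quasi-likelihood test). Since nearly all genes passed on this scale, the adjustment changed little, and the unadjusted p-value of the same test was 0.0223. That result depended on the scale and on single libraries. It was -0.012 with *Csf1r* as the scale and 0.79 with the summed counts of the markers, and it did not pass without WT replicate 1 (0.12), without WT replicate 2 (0.17) or without cKO replicate 3 (0.18). Over the 3 scales it thus ran from -0.012 to 0.79, while the markers themselves set the 0 of each scale.

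*Arg1* and *Cd86* rose by less than the markers, with log2 fold changes of -0.80 (standard error 0.11) and -1.16 (standard error 0.24) on the marker scale. With the summed counts as the scale *Arg1* was at -0.21 and did not pass (adjusted p = 0.0632, edgeR's quasi-likelihood test). *Acod1* stood at -2.23, and *Nos2* and *Cd80* at -3.23 and -3.21, close to the median of all tested genes. Since nearly all genes were lower on this scale, the lower values of these 5 are a description.

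**Figure D3:**
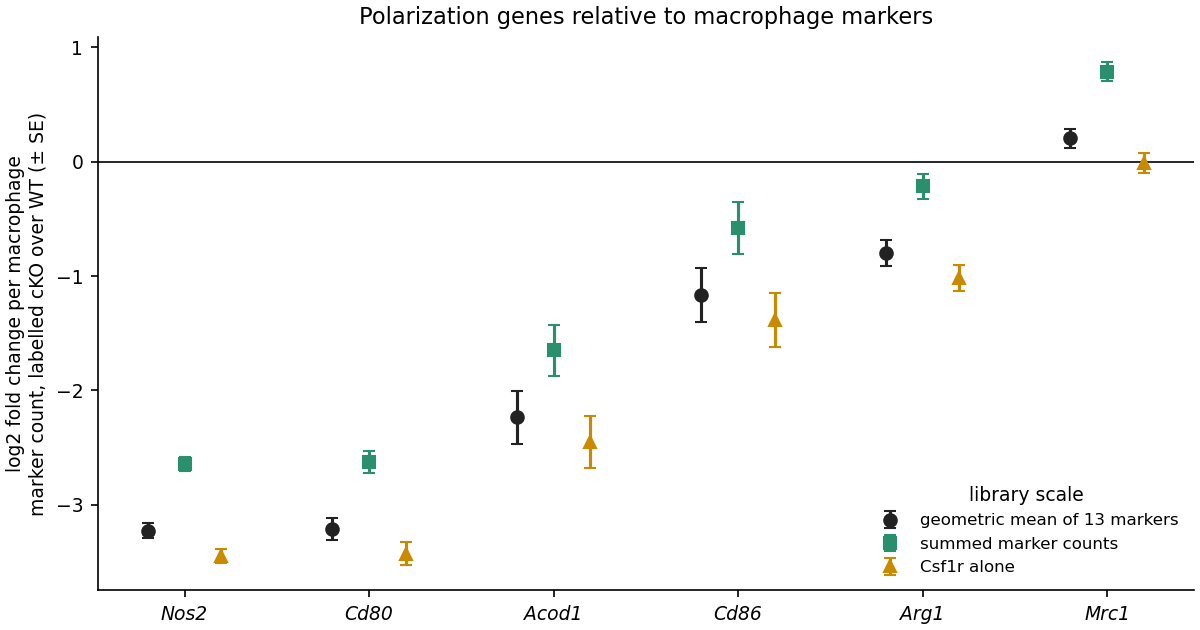
Log2 fold change, labelled cKO over WT, of the 6 tested genes after each library was scaled by macrophage markers, with standard errors from edgeR. Circles use the geometric mean of 13 markers, squares the summed counts of 14 markers and triangles *Csf1r* alone. A change of scale moves all genes by nearly the same amount, so that a like order under the 3 scales was fixed in advance. *Mrc1* is highest (-0.012 to 0.79) and *Nos2* and *Cd80* are lowest.

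Several of the signals that set these programs were scarce or at 0. Among 9 polarizing ligands, *Ifng* and *Il13* had 0 counts in all 6 libraries, *Il4* at most 6 and *Il10* at most 4. Of the 5 ligands tested, 1 was called higher and 2 lower. *Csf1*, the growth factor of macrophages, fell from 1294 ± 73.8 to 883.7 ± 23.6 CPM (SD, n = 3 each), a log2 fold change of -0.55. The alarmin *Il33* rose from 12.6 ± 2.85 to 32.1 ± 0.758 CPM, whereas *Tslp*, which acts on dendritic cells, fell from 10.0 to 3.22 CPM and *Csf2* fell from 0.764 to 0.0661 CPM. *Tgfb1* rose by 0.72 on the log2 scale.

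Of 11 receptors of polarizing signals, all tested, 9 passed as higher and 1 as lower, 4 were called higher and 0 lower, and the median log2 fold change was 0.53. Those with the smallest p-values were both chains of the GM-CSF receptor, *Csf2rb* (47.3 ± 7.95 to 147.8 ± 7.43 CPM) and *Csf2ra* (13.3 ± 1.79 to 47.3 ± 3.79 CPM), and the IL-10 receptor *Il10ra* (2.14 ± 0.825 to 16.9 ± 2.08 CPM, SD, n = 3 each). The shared receptor of IL-4 and IL-13, *Il4ra*, was at 349.2 ± 13.5 and 379.0 ± 4.56 CPM, a log2 fold change of 0.12.

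Of 16 transcription factors, 15 were tested, 6 passed as higher and 3 as lower, and the median was 0.045. *Irf8* and *Irf5*, which act in myeloid cells, were called higher, from 3.48 ± 0.147 to 23.0 ± 0.109 CPM and from 8.72 ± 0.382 to 21.4 ± 0.339 CPM. *Egr2* was called lower, from 11.8 ± 0.669 to 3.84 ± 0.414 CPM. *Stat6*, which carries the IL-4 signal, had a log2 fold change of 0.045 that did not pass (adjusted p = 0.461, edgeR's quasi-likelihood test), and *Irf4* had at most 2 counts. *Hif1a*, which supports glycolysis in activated macrophages, had a log2 fold change of 0.10 that passed. *Cebpb* was at 210.7 ± 16.1 CPM in WT and 314.9 ± 6.55 CPM in the libraries labelled cKO, a log2 fold change of 0.58. *Stat6* and *Irf4* were chosen for description after their values were seen.

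Of 14 further genes induced by IL-4 and IL-13 or carried by resident macrophages, 6 were tested, all 6 passed as higher and 5 were called, with a median of 2.56. Over all tested genes, the background for every list, 20.1% passed as higher and 6.56% were called higher. Scaled by the geometric mean of the macrophage markers, the 6 stood at 0.36 (*Stab1*), -0.036 (*Folr2*), -0.13 (*Msr1*), -0.66 (*Il1rn*), -1.24 (*Clec7a*) and -2.22 (*Tgm2*). *Stab1* rose from 15 ± 0.739 to 148.5 ± 10.4 CPM, *Msr1* from 33.1 ± 4.61 to 233.6 ± 4.58 CPM and *Il1rn*, the antagonist of IL-1, from 67.3 ± 3.62 to 330.3 ± 8.95 CPM (SD, n = 3 each). The other 8 were not tested for want of counts, among them *Ccl24*, *Cd209a* and *Chil4* with 0 counts in all 6 libraries and *Clec10a*, *Mgl2* and *Ccl17* with at most 12. Of the 17 other genes induced by LPS and interferon-γ, 13 were tested, 7 passed as higher and 2 as lower, and the median was 0.52, with 5 calls upward and 1 downward. *Il6*, the cytokine interleukin-6, rose from 250.4 ± 25.9 to 590.0 ± 36.9 CPM (SD, n = 3 each), a log2 fold change of 1.24. The cytokine genes *Tnf* and *Il1b* were called higher as well, *Tnf* from 0.917 ± 0.143 to 5.07 ± 0.746 CPM and *Il1b* from 0.283 ± 0.347 to 1.58 ± 0.723 CPM. *Il1b* was scarce, with 8, 0 and 26 counts in WT and 43, 53 and 109 in the libraries labelled cKO. *Ptgs2*, the inducible cyclooxygenase, fell from 1349.6 ± 81.9 to 871.1 ± 78.5 CPM, a log2 fold change of -0.63. *Ccl5* rose from 132.0 ± 22 to 202.1 ± 10.1 CPM and the guanylate-binding protein *Gbp5* from 2.80 ± 0.0556 to 7.87 ± 0.928 CPM. The 1 called lower was *Cxcl10*, from 1.88 ± 0.603 to 0.785 ± 0.348 CPM. Scaled by the geometric mean of the macrophage markers, *Il1b* stood at -0.38, *Tnf* at -0.48, *Gbp5* at -1.46 and *Il6* at -1.71. On that scale *Ccl5* was at -2.34, *Ptgs2* at -3.58 and *Cxcl10* at -4.19. *Il12a*, *Il12b* and *Il23a*, the interleukin genes of this list tied to T cell help, had at most 12 counts in any library.

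**Figure D4:**
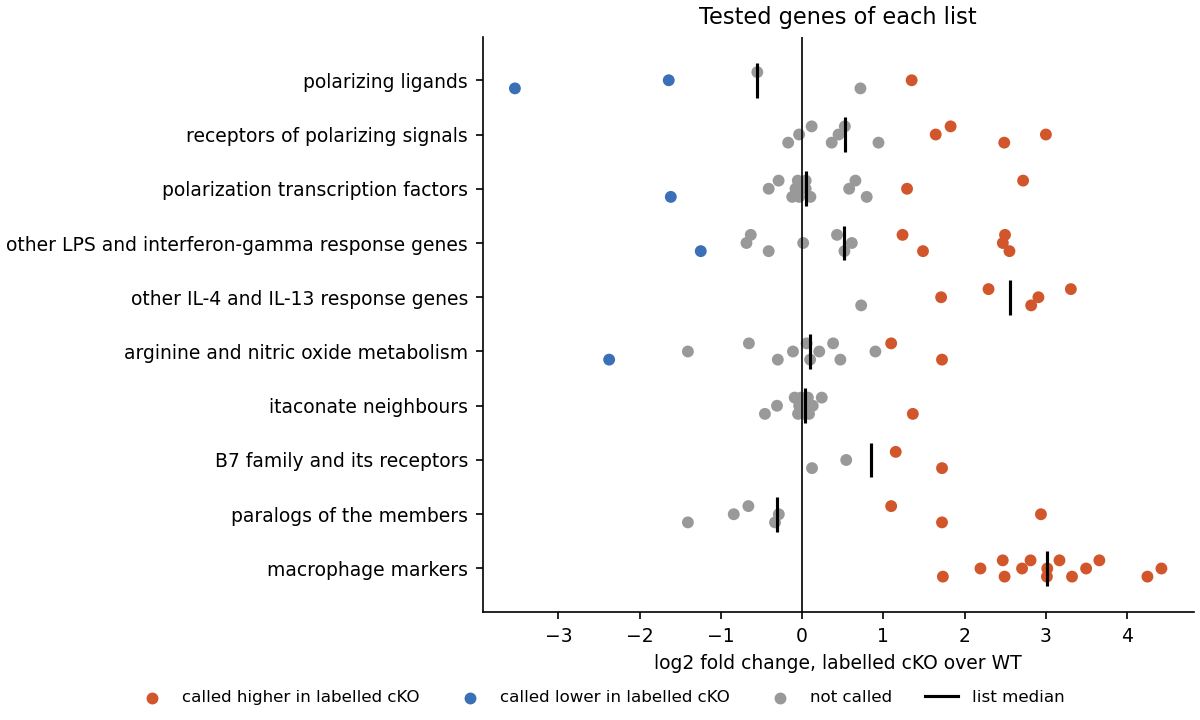
Log2 fold change, labelled cKO over WT, of each tested gene in 9 lists around macrophage polarization and in the list of macrophage markers, with small vertical offsets only to part the points. Orange and blue points were called higher and lower, grey points were not called and the black line is the median of the list. It runs from -0.55 for the ligands to 2.56 for the genes induced by IL-4 and IL-13 or carried by resident macrophages and 3.02 for the macrophage markers.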

How the data were processed

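RNA from 3 cultures labelled WT and 3 labelled cKO was sequenced by the study as 150 bp read pairs from a directional kit. The authors aligned trimmed reads to GRCm39 with HISAT2 (2.0.5 in the submitters' processing notes) and deposited raw counts per gene from featureCounts, without normalization, with a gene length in bases. The notes give featureCounts as 1.55.0-p3 and the methods name another release. The strand setting is not given in the sources used here. Even values made up 63.4% to 65.7% of the counts between 1 and 10, which can arise where each mate of a pair is counted, so that counts were also halved as an alternative.

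Groups followed the sample titles. From the counts, filterByExpr, TMM scaling, glmQLFit and glmQLFTest of edgeR 4.0.16 (R 4.3.3) were run on all genes with genotype as the only term, after the procedure had been tested on simulated data. CPM are counts per 1000000 of the TMM-scaled library. The alternatives were DESeq2 1.42.0, limma-voom (limma 3.58.1), edgeR's exact test, other scalings and filters, the replicate block and leaving out each library. Counts of replicates differed by more than sampling noise (chi-square statistic per gene 4.71 to 13.0), so that all 6 libraries were kept apart.

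The 9 members and all lists were chosen with earlier results of these data known. Genes named were the 9, *Gsdmd*, and of a list at most the 3 with the highest mean CPM and the 3 called genes with the smallest p-values, where the text turned on them. Other genes named, mostly those with few or 0 counts, were chosen after their values were seen. Promoters were read from GRCm39 at the canonical starts of GENCODE M39, whose gene models share the chromosome of all 9 genes. Their bounds were not always the deposited ones. On the side of the transcription start, differences (M39 minus deposited) were 435 bases for *Arg1*, on the minus strand, and -52 for *Mrc1*, on the plus strand. The *Arg1* window begins at 24803517, whereas the deposited gene ends at 24803382. For *Cd86*, on the minus strand, the difference of -187 lies at the side away from the transcription start. The *Cd80* window, from 38279045 to 38279294, lies inside the deposited gene, which starts at 38275923. The motif matches thus depend on the start used. Cell type lists served as markers only. 1 gene of a list is not reported here.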

Additional observations from a re-analysis of the deposited data

How the results depend on the processing

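The log2 fold changes of the 6 tested genes and *Gsdmd* kept their direction and their side of 0.05 in all 112 combinations of gene and alternative. That of *Nos2* lay between -0.35 and -0.25, that of *Cd80* between -0.32 and -0.23 and that of *Acod1* between 0.63 and 0.82. Of the 9 genes, 3 were called higher under every alternative with the limit on fold change. Without that limit 4 passed as higher and 2 as lower, and of all genes 3445 passed as higher and 3285 as lower. A filter of 10 counts in each library left 522 genes called lower, against 796 in the main fit, and the cause of that drop was not tested. With each library left out, 1027 to 1153 genes were called higher and 773 to 827 lower.

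On the scale of the macrophage markers, 49 of 54 combinations kept direction and side. *Mrc1* turned to -0.012 with *Csf1r* alone (adjusted p = 0.887, edgeR's quasi-likelihood test) and ranged from 0.12 to 0.33 with each library left out. *Arg1* was at -0.21 with the summed counts, where it did not pass. The cause of these shifts was not tested.

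Replicate numbers did not pair the samples: deviations of same-numbered libraries correlated at -0.0055, 0.0023 and -0.010, and no library correlated best with its own number. With the replicate block, 1087 genes were called higher and 772 lower, 3 of the 9 genes were called higher, and *Nos2* stayed at -0.28. The few counts of *Cd163*, *Retnla* and *Chil3* limit what can be said of them at this depth.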

Other observations

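Several marker lists of other cell types were measured beside the 9 genes. Of 5 fibroblast markers, all tested, 3 passed as higher and 1 as lower, with a summed level of 10000.1 to 10556.5 CPM in WT and 10616 to 11329 CPM in the libraries labelled cKO. Of 6 tested osteoblast markers 2 passed as higher and 3 as lower, and *Ibsp*, a mineral-binding matrix protein, was called higher at 1.73 ± 0.527 CPM in WT and 6.92 ± 1.01 CPM in the libraries labelled cKO. Of 6 tested osteoclast markers, *Atp6v0d2* and *Acp5* were called higher and *Mmp9* lower, the last from 21.9 ± 3.7 to 3.05 ± 0.609 CPM (SD, n = 3 each). Of 4 endothelial markers *Kdr* was called higher and *Pecam1*, *Cdh5* and *Tek* lower, at 5.55 CPM or less in either genotype. Among 7 dendritic cell markers *Itgax*, which macrophages also express, was called higher, and *Flt3* and *Siglech* had 0 counts in all 6 libraries. The 10 neutrophil markers had a summed level of 9.53 to 12.7 CPM in WT and 28.3 to 32.4 CPM in the libraries labelled cKO. Of 5 B cell markers none was tested, and *Ms4a1* had 0 counts in all 6. Of the T cell markers only *Lck* was tested, and it did not pass (log2 fold change 0.79, adjusted p = 0.284, edgeR's quasi-likelihood test). The 7 osteocyte markers had a summed level of 231.3 to 245.4 CPM in WT and 195.7 to 202.5 CPM in the libraries labelled cKO, nearly all of it from *Pdpn*, which connective tissue cells also express.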
